A study of Mus musculus with 12 samples.

Results

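The genes described here are 36 integrin chains, selectin-pathway genes and endothelial-type or junctional adhesion receptors, taken by symbol from a list out of the 39017 genes of a deposited mouse count table. They comprise 13 integrin alpha chains, 7 integrin beta chains, P-selectin and its ligand, 2 integrin counter-receptors of the ICAM family, 9 endothelial-type or junctional receptors and 3 other adhesion proteins. The list leaves out Itga2b and Vcam1. RNA-seq was done on 12 libraries of sorted bone marrow LSK cells, the lineage-negative Sca1-positive cKit-positive fraction that holds blood stem and early progenitor cells, with 3 libraries in each of 4 groups. All mice were of C57BL/6J; Sv/129 background, all received poly(I:C) at 2 ug per g body weight, and all libraries carry the label of batch 1. The NOTCHWT_TCFWT label stands for wild type mice, in which poly(I:C) served as the control injection. The NICD_TCFWT label stands for R26 N1IC lox/+ Mx1Cre, an activated Notch1 intracellular domain released at the Rosa26 locus by Cre. The NICD_TCFKO label stands for R26 N1IC lox/+ Tcf7 lox/lox Mx1Cre, and the NOTCHWT_TCFKO label for Tcf7 lox/lox Mx1Cre. Both N1IC groups were sorted as CD45.2+ eGFP+ Lin- Sca1+ cKit+, whereas the other groups were sorted as Lin- Sca1+ cKit+ alone, so the gate and the N1IC label cannot be told apart. Mx1Cre is driven by an interferon-inducible promoter that is active in many tissues besides blood cells. The labels give neither ages nor whether replicates came from separate mice, so p-values measure the spread between these libraries, which may be technical in part.

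Integrins are heterodimers of 1 alpha and 1 beta chain that bind extracellular matrix or receptors on other cells, and that switch between low and high affinity through talin and kindlin at the cytoplasmic tail. In bone marrow, blood progenitors are held in their niche by integrins such as the alpha-4 and alpha-6 heterodimers, roll on endothelium through selectins and their sialylated ligands, and arrest through integrins that bind ICAM and VCAM proteins. Junctional molecules such as the JAM proteins and ESAM were first described at endothelial or epithelial contacts, and several of them, with endomucin, also mark stem cell fractions of the marrow.

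Total counts ranged from 30453271 to 43790674 per library, and 3 reads, taken as the limit of what a count of 0 allows, corresponded to 0.0685 to 0.0985 CPM, the unit used below, which is a count relative to the library size after TMM scaling. These limits cover counting error only. The targeted genes went against the labels in part. Tcf7 stood at 10.5 to 19.6 CPM under the NOTCHWT_TCFWT label, 4.68 to 6.76 under NICD_TCFWT, 297 to 896 under NICD_TCFKO and 0.267 to 2.76 under NOTCHWT_TCFKO, so a group labelled as deleted held the highest level. Which exons the deletion removes is not given in the sources used here, and a gene-level count also covers exons outside it. Notch1, whose count can include transgene reads, stood at 541 to 622, 157 to 195, 591 to 887 and 104 to 197 CPM in the same order, and the Notch target Dtx1 at 81.5 to 91.9, 0.0543 to 0.162, 64.7 to 165 and 0.0793 to 0.425 CPM. The NICD_TCFWT-labelled libraries therefore held low Notch1 and almost no Dtx1, against their label. For this reason each group is named below only by its label, and a direction applies to the libraries so labelled and not to the genotype. Kit was at 610 to 978 CPM throughout, and Ly6a, the Sca1 gene, at 101 to 148, 51.8 to 87.9, 74.8 to 120 and 33.1 to 45.9 CPM in that order. The labels give no sex, and Xist and Y-linked reads showed a mix: all 3 NOTCHWT_TCFWT-labelled libraries were Xist-high, 4 of the other 9 libraries were Xist-low, and NOTCHWT_TCFKO replicate 1 held both Xist (2160 CPM) and Y-linked reads (154 CPM). NOTCHWT_TCFKO replicate 2 held the most RNA of mature neutrophils (S100a9 at 792 CPM against at most 105 elsewhere).

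Of the 36 adhesion genes, 34 passed the filter on low counts, and 18 of them differed among the 4 groups at an adjusted p under 0.05 (edgeR quasi-likelihood F test, Benjamini-Hochberg over all 16024 genes tested). That is 52.9% of the tested members, beside 29.7% of all genes tested. The members and the lists used below were chosen with earlier results of these data known. Shares above those of all genes, here and below, are therefore not evidence of an excess. By role they were 7 of the 13 alpha chains, 5 of the 7 beta chains, 4 of the 9 endothelial-type or junctional receptors, Selplg of the selectin pair, Cd44 of the 3 other adhesion genes and neither ICAM. Itga6 missed this test and passed 1 of the comparisons of 2 groups. Without NOTCHWT_TCFKO replicate 1 the count was 13, and without NOTCHWT_TCFKO replicate 2 it was 17. Counts over all genes in such alternative fits are not given, here or below. A loss among the members therefore cannot be told apart from a general loss of calls. Steadiness varied widely, from Icam2, whose highest library was 1.35 times its lowest, to Itgb5, whose highest library was 184 times its lowest, and Itga1, at 397 times from a lowest library of 1 read. In 8 genes the groups split in the same way without overlap. Itgal, Itga9, Itgae and Itgb7 were higher in all 6 libraries labelled NOTCHWT_TCFWT or NICD_TCFKO than in all 6 libraries labelled NICD_TCFWT or NOTCHWT_TCFKO, and Itgb5, Emcn, Jam2 and Jam3 were lower. Notch1 and Dtx1 split the libraries in the same way. These are levels in bulk RNA, in which fewer cells of a type and less RNA per cell cannot be told apart.

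Itgal (chr7:127296260-127335138, plus strand, GRCm38) encodes the alpha chain of LFA-1, the leukocyte receptor for ICAM proteins. Its level was 605, 695 and 583 CPM in the NOTCHWT_TCFWT-labelled libraries, 167, 200.0 and 194 in those labelled NICD_TCFWT, 473, 518 and 481 in those labelled NICD_TCFKO, and 138, 180.3 and 133 in those labelled NOTCHWT_TCFKO. No library labelled NOTCHWT_TCFWT or NICD_TCFKO overlapped the others. The NICD_TCFWT mean was 3.35-fold below the NOTCHWT_TCFWT mean (log2 change -1.75 ± 0.12 SE, adjusted p = 1.23e-05, edgeR) and the NOTCHWT_TCFKO mean was 4.17-fold below it (-2.06 ± 0.12, adjusted p = 3.54e-06, edgeR). Under the NICD_TCFKO label Itgal was 2.62-fold above NICD_TCFWT (1.39 ± 0.12, adjusted p = 0.000107, edgeR) and 3.26-fold above NOTCHWT_TCFKO (1.70 ± 0.12, adjusted p = 1.39e-05, edgeR). All 4 calls held under each alternative that was run.

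Itga9 (chr9:118606690-118901003, plus strand), the alpha chain that pairs with beta-1 to bind tenascin, osteopontin and VCAM-1, had the same groups high and low as Itgal, at a lower level. It stood at 47.1, 66.4 and 45.9 CPM under NOTCHWT_TCFWT, 9.61, 12.3 and 10.1 under NICD_TCFWT, 36.6, 23.1 and 30.1 under NICD_TCFKO, and 12.9, 11.9 and 19.1 under NOTCHWT_TCFKO. The highest library of the low groups, at 19.1 CPM, lay below the lowest of the high groups, at 23.1 CPM. Itga9 was 4.98-fold lower under NICD_TCFWT than under NOTCHWT_TCFWT (log2 change -2.31 ± 0.23 SE, adjusted p = 0.000132, edgeR) and 3.63-fold lower under NOTCHWT_TCFKO (-1.86 ± 0.23, adjusted p = 0.000332, edgeR). The NICD_TCFKO level was 2.80-fold above NICD_TCFWT (1.49 ± 0.23, adjusted p = 0.00275, edgeR). It was 2.05-fold above NOTCHWT_TCFKO (1.03 ± 0.23, adjusted p = 0.0114, edgeR), a call lost without NOTCHWT_TCFKO replicate 1 (adjusted p = 0.0514).

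Itgae (chr11:73090583-73147446, plus strand) encodes CD103, the alpha chain that joins beta-7 to bind E-cadherin on epithelium. Its 3 NOTCHWT_TCFWT-labelled libraries ranged widely, at 3.69, 1.46 and 13.9 CPM. The level was 0.271, 0.180 and 1.41 CPM under NICD_TCFWT, 1.68, 3.29 and 2.14 under NICD_TCFKO, and 0.185, 1.14 and 0.461 under NOTCHWT_TCFKO. Every NICD_TCFWT and NOTCHWT_TCFKO library lay below every other library, by a small margin of 1.41 against 1.46 CPM. Its fall under NICD_TCFWT (log2 change -3.36 ± 1.02 SE, adjusted p = 0.042, edgeR) was lost on leaving out any 1 of 8 of the 12 libraries (adjusted p 0.0545 to 0.17), namely all but NOTCHWT_TCFWT replicate 2, NICD_TCFWT replicate 3 and NOTCHWT_TCFKO replicates 1 and 2, and under 4 of 8 other settings (0.0608 to 0.0934), namely no filter on low counts, limma-voom, only the 2 groups fitted, and Xist-high against Xist-low as a covariate. Its fall under NOTCHWT_TCFKO (-3.41 ± 1.02, adjusted p = 0.0389, edgeR) was lost on leaving out 7 of the 12 (0.0519 to 0.149), namely NOTCHWT_TCFWT replicates 1 and 3, each NICD_TCFKO library, and NOTCHWT_TCFKO replicates 1 and 3, and under the same 4 settings and with the replicate number as a block (0.0518 to 0.0826).

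Itgax and Itga4 were highest under the NICD_TCFKO label. Itgax (chr7:128129547-128150657, plus strand) encodes CD11c, a beta-2 partner best known from dendritic cells. Its level was 14.1, 13.9 and 17.4 CPM under NOTCHWT_TCFWT, 21.2, 16.8 and 14.3 under NICD_TCFWT, 62.6, 142 and 134 under NICD_TCFKO, and 5.07, 9.90 and 7.73 under NOTCHWT_TCFKO. All 3 NICD_TCFKO-labelled libraries lay above the other 9, and all 3 NOTCHWT_TCFKO-labelled libraries lay below the other 9. Itgax was 6.48-fold higher under NICD_TCFKO than under NICD_TCFWT (log2 change 2.70 ± 0.33 SE, adjusted p = 0.00101, edgeR) and 14.9-fold higher than under NOTCHWT_TCFKO (3.90 ± 0.35, adjusted p = 8.95e-05, edgeR). The difference between NOTCHWT_TCFKO and NOTCHWT_TCFWT was -0.999 ± 0.321 on the log2 scale and missed the threshold (adjusted p = 0.0506, edgeR; 0.00831 with DESeq2). Itga4 (chr2:79255426-79333123, plus strand), the alpha chain of VLA-4 that anchors progenitors to VCAM-1 and fibronectin, was among the most abundant members. It stood at 521, 391 and 628 CPM, 429, 481 and 498 CPM, 793, 1649 and 1250.0 CPM, and 590, 616 and 477 CPM in the same order of groups. The lowest NICD_TCFKO-labelled library, at 793 CPM, exceeded every other library, whose highest was at 628 CPM. Itga4 rose 2.62-fold against NICD_TCFWT (1.39 ± 0.25, adjusted p = 0.00627, edgeR) and 2.19-fold against NOTCHWT_TCFKO (1.13 ± 0.24, adjusted p = 0.0114, edgeR; 0.0571 when only these 2 groups were fitted).

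Itga6, Itga1 and Itga3 each had at least 1 call that rested on fewer libraries or reads. Itga6 (chr2:71745616-71858416, plus strand), the laminin receptor chain that also marks stem cells, was at 147, 155 and 136 CPM, 141, 136 and 130 CPM, 133, 67.9 and 74.4 CPM, and 163, 149 and 169 CPM in the same order. NICD_TCFKO replicates 2 and 3 were the lowest of all, while replicate 1 lay close to the other groups. Itga6 was lower under NICD_TCFKO than under NOTCHWT_TCFKO (log2 change -0.80 ± 0.21 SE, adjusted p = 0.0228, edgeR), and the call was lost without NICD_TCFKO replicate 2 (0.0653), NICD_TCFKO replicate 3 (0.0773) or NOTCHWT_TCFKO replicate 1 (0.0637), and with only the 2 groups fitted (0.108). Itga1 (chr13:114953096-115101964, minus strand), a collagen receptor chain, gave 1, 1 and 18 reads under NOTCHWT_TCFWT, 5, 16 and 93 under NICD_TCFWT, 19, 31 and 55 under NICD_TCFKO, and 188, 431 and 41 under NOTCHWT_TCFKO. NOTCHWT_TCFKO replicates 1 and 2 held most of these reads, at 4.97 and 11.4 CPM against 0.994 CPM in replicate 3. Its rise under NOTCHWT_TCFKO against NOTCHWT_TCFWT had an adjusted p of 0.0264 (edgeR), and was lost without NOTCHWT_TCFWT replicate 1 (0.0909) or 2 (0.0848), without NOTCHWT_TCFKO replicate 1 (0.0508) or 2 (0.0696), and with limma-voom (0.0839) or only the 2 groups fitted (0.0537). Itga3 (chr11:95044474-95076801, minus strand), a laminin receptor chain of epithelia, averaged 1.11 ± 0.41 CPM (SD, n = 3) under NOTCHWT_TCFWT, 3.73 ± 0.31 under NICD_TCFWT, 1.74 ± 0.61 under NICD_TCFKO and 2.56 ± 1.44 under NOTCHWT_TCFKO. It was higher under NICD_TCFWT than under NOTCHWT_TCFWT (1.75 ± 0.45, adjusted p = 0.0199, edgeR), a call lost without NOTCHWT_TCFWT replicate 1 (0.0688), NICD_TCFWT replicate 1 (0.0559) or NICD_TCFWT replicate 3 (0.0509), and with the Xist covariate (0.0558).

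The other alpha chains had no call. Itga5, the fibronectin receptor chain, ranged from 54.8 to 110 CPM with a median of 75.8, Itgav, the alpha chain of the RGD-binding integrins, from 26.0 to 47.1 with a median of 31.4, and Itga2, another collagen receptor chain, from 2.20 to 8.22 with a median of 5.04. Itgam, the CD11b chain of granulocytes and macrophages, ranged from 24.2 to 144 CPM. Its highest value was in NOTCHWT_TCFKO replicate 2, the library with the most neutrophil RNA, and the other 11 libraries ended at 71.8 CPM. Itga7 gave 0 to 4 reads in each library and was not tested.

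Among the beta chains, Itgb5 varied most. Itgb5 (chr16:33829665-33949338, plus strand) pairs with alpha-v to bind vitronectin. It was at 1.10, 0.529 and 0.233 CPM under NOTCHWT_TCFWT (38, 16 and 10 reads), 26.2, 26.5 and 14.6 under NICD_TCFWT, 7.20, 3.39 and 4.46 under NICD_TCFKO, and 24.3, 19.3 and 43.0 under NOTCHWT_TCFKO. The groups formed 3 separate bands, with NOTCHWT_TCFWT lowest, NICD_TCFKO between, and NICD_TCFWT and NOTCHWT_TCFKO overlapping at the top. Against NOTCHWT_TCFWT the mean was 36.2-fold higher under NICD_TCFWT (log2 change 5.19 ± 0.59 SE, adjusted p = 0.000348, edgeR) and 46.6-fold higher under NOTCHWT_TCFKO (5.55 ± 0.60, adjusted p = 0.000196, edgeR). NICD_TCFKO was 5.76-fold below NOTCHWT_TCFKO (-2.52 ± 0.51, adjusted p = 0.00836, edgeR). It was 4.47-fold below NICD_TCFWT (-2.16 ± 0.50, adjusted p = 0.021, edgeR), a call lost without NICD_TCFWT replicate 1 (0.0677) or 2 (0.0671) or NICD_TCFKO replicate 2 (0.0899) or 3 (0.0706).

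Itgb7 (chr15:102215995-102231944, minus strand), the gut-homing beta chain that joins alpha-4 or alpha-E, was at 105, 72.4 and 138 CPM under NOTCHWT_TCFWT, 48.1, 42.9 and 42.0 under NICD_TCFWT, 77.4, 132 and 90.7 under NICD_TCFKO, and 32.5, 71.6 and 46.3 under NOTCHWT_TCFKO. The high and low groups came within 1 CPM of each other, at 71.6 and 72.4 CPM. Itgb7 was 2.38-fold lower under NICD_TCFWT than under NOTCHWT_TCFWT (log2 change -1.25 ± 0.32 SE, adjusted p = 0.0207, edgeR), which was lost without NOTCHWT_TCFWT replicate 1 or 3 or any NICD_TCFWT library (adjusted p 0.0545 to 0.0741) and with the Xist covariate (0.0921). It was 2.10-fold lower under NOTCHWT_TCFKO (-1.07 ± 0.31, adjusted p = 0.0361, edgeR), lost on leaving out 8 of the 12 libraries (0.0513 to 0.124), all but NOTCHWT_TCFWT replicate 2, NICD_TCFKO replicates 1 and 2 and NOTCHWT_TCFKO replicate 2, and with no filter (0.0725), only the 2 groups (0.11) or the Xist covariate (0.0652). It was 2.25-fold higher under NICD_TCFKO than under NICD_TCFWT (1.17 ± 0.32, adjusted p = 0.0387, edgeR), lost on leaving out 6 of the 12 (0.0589 to 0.147), namely NOTCHWT_TCFWT replicate 1, each NICD_TCFWT library and NICD_TCFKO replicates 2 and 3, and with no filter (0.0725), the replicate block (0.0661) or the Xist covariate (0.083).

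Itgb3 (chr11:104608000-104670476, plus strand), the beta chain of the platelet fibrinogen receptor and of the vitronectin receptor, was at 65.5, 69.1 and 56.6 CPM, 22.8, 21.3 and 49.6 CPM, 42.7, 42.5 and 58.9 CPM, and 24.8, 35.5 and 22.6 CPM in the order NOTCHWT_TCFWT, NICD_TCFWT, NICD_TCFKO and NOTCHWT_TCFKO. NICD_TCFWT replicate 3 stood apart from its group and reached the range of NICD_TCFKO. Itgb3 was lower under NICD_TCFWT (log2 change -1.03 ± 0.31 SE, adjusted p = 0.0414, edgeR) and under NOTCHWT_TCFKO (-1.21 ± 0.31, adjusted p = 0.0211, edgeR) than under NOTCHWT_TCFWT. The first call was lost on leaving out 9 of the 12 libraries (0.0515 to 0.149), all but NICD_TCFWT replicate 3, NICD_TCFKO replicate 3 and NOTCHWT_TCFKO replicate 2, and under 4 of 8 other settings (0.0503 to 0.0904: no filter, replicate block, only the 2 groups, Xist covariate). The second was lost without NOTCHWT_TCFWT replicate 1 or 2 or NOTCHWT_TCFKO replicate 1 or 3 (0.0666 to 0.0854). Itgb4 (chr11:115974709-116008412, plus strand), the hemidesmosome beta chain that pairs with alpha-6, was low throughout, at 4.27, 2.35 and 4.81 CPM, 3.20, 2.73 and 2.08 CPM, 5.28, 6.17 and 8.79 CPM, and 1.29, 1.62 and 3.42 CPM. Its 3 NICD_TCFKO-labelled libraries lay above the other 9. The difference from NOTCHWT_TCFKO was called (1.67 ± 0.40, adjusted p = 0.0172, edgeR), and was lost without NICD_TCFKO replicate 3 (0.0584) or NOTCHWT_TCFKO replicate 1 (0.063) or 2 (0.0539) and with only the 2 groups fitted (0.0634).

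Itgb1 (chr8:128685654-128733200, plus strand), the common partner of most alpha chains here, varied little, at 365, 367 and 375 CPM, 320.4, 324 and 325 CPM, 310.2, 258 and 295 CPM, and 362, 387 and 336 CPM. It differed among the groups (adjusted p = 0.015, edgeR), and was 1.26-fold lower under NICD_TCFKO than under NOTCHWT_TCFKO (log2 change -0.33 ± 0.08 SE, adjusted p = 0.0144, edgeR). That call was lost without NICD_TCFKO replicate 2 (0.0614) or NOTCHWT_TCFKO replicate 2 (0.0625) and with only the 2 groups fitted (0.0994). Itgb2, the beta chain shared by LFA-1, Mac-1 and CD11c, had no call and ranged from 37.9 to 99.9 CPM with a median of 56.0. Itgb8 gave at most 1 read per library and was not tested.

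Set side by side per kilobase of exon, which allows a rough comparison between genes, the chains of 1 heterodimer did not change by the same factor. Itgal averaged 95.6, 28.5, 74.7 and 22.9 CPM per kb under NOTCHWT_TCFWT, NICD_TCFWT, NICD_TCFKO and NOTCHWT_TCFKO, whereas its only partner Itgb2 averaged 18.9, 16.8, 20.8 and 21.5. The Itgal mean per kb was above that of Itgb2 in each group, with the largest difference under NOTCHWT_TCFWT. In NOTCHWT_TCFKO replicate 2 the order was reversed. Itga4 averaged 36.7, 33.6, 88.1 and 40.1 CPM per kb, and its partners Itgb1 and Itgb7 averaged 90.4, 79.2, 70.6 and 88.7, and 38.05, 16.0, 36.1 and 18.1. Under NICD_TCFKO the Itga4 mean per kb thus passed that of Itgb1, though in replicate 1 Itga4 stayed below Itgb1. Itgav averaged 3.66, 2.75, 2.64 and 3.19 CPM per kb, while of its partners Itgb5 went from 0.174 to 6.31, 1.41 and 8.125 and Itgb3 from 10.8 to 5.29, 8.14 and 4.68. Of these beta chains Itgb3 had the higher mean per kb under NOTCHWT_TCFWT and NICD_TCFKO, and Itgb5 under the other labels. Itgb3 was nonetheless the higher per kb in NICD_TCFWT replicate 3 and NOTCHWT_TCFKO replicate 2.

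P-selectin (Selp), which platelets and endothelium store in granules, had no call by edgeR. Its level was 54.6, 60.7 and 33.3 CPM under NOTCHWT_TCFWT, 45.9, 33.6 and 90.9 under NICD_TCFWT, 22.3, 11.1 and 22.1 under NICD_TCFKO, and 47.9, 72.1 and 29.0 under NOTCHWT_TCFKO. All NICD_TCFKO-labelled libraries lay below the other 9, and the difference from NICD_TCFWT (log2 -1.62 ± 0.47 SE) missed the threshold (adjusted p = 0.0508 with edgeR, 0.00113 with DESeq2). Selplg (chr5:113818536-113832644, minus strand), which encodes the selectin ligand PSGL-1, was at 138, 130.4 and 119 CPM, 146, 158 and 179 CPM, 177, 207 and 192 CPM, and 142, 179 and 161 CPM in the order NOTCHWT_TCFWT, NICD_TCFWT, NICD_TCFKO and NOTCHWT_TCFKO. The 3 NOTCHWT_TCFWT-labelled libraries were the lowest of all. Selplg differed among the 4 groups (adjusted p = 0.0138, edgeR) with no single comparison past the threshold, the nearest being NOTCHWT_TCFKO against NOTCHWT_TCFWT (0.32 ± 0.11, adjusted p = 0.0552). The counter-receptors Icam1 and Icam2 had no call and were among the steadiest members, at 33.5 to 50.5 and 47.6 to 64.3 CPM.

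Among the junctional and endothelial-type genes, 3 that were nearly silent under NOTCHWT_TCFWT were higher under NICD_TCFWT and NOTCHWT_TCFKO. Emcn (chr3:137341067-137432185, plus strand) encodes endomucin, a sialomucin of endothelium that is also found on stem cells. Its level was 0.606, 0.959 and 0.700 CPM under NOTCHWT_TCFWT (21, 29 and 30 reads), 16.2, 16.4 and 17.6 under NICD_TCFWT, 8.20, 2.35 and 6.30 under NICD_TCFKO, and 21.8, 15.3 and 24.8 under NOTCHWT_TCFKO. As with Itgb5, NICD_TCFKO lay between the other labels without overlap. Emcn was 22.2-fold higher under NICD_TCFWT than under NOTCHWT_TCFWT (log2 change 4.47 ± 0.43 SE, adjusted p = 9.73e-05, edgeR) and 27.4-fold higher under NOTCHWT_TCFKO (4.78 ± 0.43, adjusted p = 5.04e-05, edgeR). NICD_TCFKO was 3.68-fold below NOTCHWT_TCFKO (-1.88 ± 0.37, adjusted p = 0.00736, edgeR; 0.0581 with only the 2 groups fitted). It was 2.98-fold below NICD_TCFWT (-1.57 ± 0.37, adjusted p = 0.0211, edgeR), a call lost without any 1 NICD_TCFWT library (0.0591, 0.0597 and 0.06) or NICD_TCFKO replicate 3 (0.056), and with only the 2 groups fitted (0.0614).

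Jam2 (chr16:84774123-84825928, plus strand), the JAM-B ligand of JAM-C, gave 8, 9 and 4 reads under NOTCHWT_TCFWT and 27, 8 and 38 under NICD_TCFKO, against 104 to 141 under NICD_TCFWT and 117 to 135 under NOTCHWT_TCFKO. Its mean rose from 0.207 ± 0.104 CPM (SD, n = 3) to 3.285 ± 0.580 under NICD_TCFWT (log2 change 3.99 ± 0.56 SE, adjusted p = 0.000883, edgeR) and to 3.17 ± 0.09 under NOTCHWT_TCFKO (3.94 ± 0.56, adjusted p = 0.000773, edgeR). NICD_TCFKO, at 0.605 ± 0.381 CPM, was below both NICD_TCFWT (-2.44 ± 0.51, adjusted p = 0.0122, edgeR) and NOTCHWT_TCFKO (-2.39 ± 0.51, adjusted p = 0.00982, edgeR), and these 4 calls held under each alternative. Jam3 (chr9:27097384-27155421, minus strand), which encodes JAM-C, averaged 0.659 ± 0.464, 4.11 ± 0.59, 2.47 ± 1.10 and 4.04 ± 0.16 CPM in the order NOTCHWT_TCFWT, NICD_TCFWT, NICD_TCFKO and NOTCHWT_TCFKO. The JAM-C gene thus moved with that of its binding partner against NOTCHWT_TCFWT (2.65 ± 0.49 under NICD_TCFWT, adjusted p = 0.00375, and 2.62 ± 0.49 under NOTCHWT_TCFKO, adjusted p = 0.00363, edgeR). Its differences of NICD_TCFKO from NICD_TCFWT and from NOTCHWT_TCFKO were -0.73 ± 0.45 and -0.71 ± 0.45 and had adjusted p-values of 0.308 and 0.307 (edgeR).

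Esam (chr9:37528078-37538319, plus strand), a junctional immunoglobulin protein that also marks stem cells in the LSK gate, went the other way. It was at 109, 131 and 82.8 CPM under NOTCHWT_TCFWT, 54.7, 39.8 and 40.9 under NICD_TCFWT, 85.9, 34.5 and 57.2 under NICD_TCFKO, and 24.8, 22.6 and 37.4 under NOTCHWT_TCFKO. The NICD_TCFKO libraries overlapped each of the other 3 groups. Esam was 3.80-fold lower under NOTCHWT_TCFKO than under NOTCHWT_TCFWT (log2 change -1.93 ± 0.33 SE, adjusted p = 0.0031, edgeR). It was 2.38-fold lower under NICD_TCFWT (-1.25 ± 0.32, adjusted p = 0.0226, edgeR), lost without NOTCHWT_TCFWT replicate 1 (0.0594) or 2 (0.073) or NICD_TCFWT replicate 2 (0.0759) or 3 (0.0729). The rise under NICD_TCFKO against NOTCHWT_TCFKO (1.07 ± 0.32, adjusted p = 0.046, edgeR) was lost on leaving out 9 of the 12 libraries (0.0528 to 0.137), all but NOTCHWT_TCFWT replicate 3, NICD_TCFKO replicate 2 and NOTCHWT_TCFKO replicate 3, and under 4 of 8 other settings (0.064 to 0.124: no filter, limma-voom, replicate block, only the 2 groups). Pecam1, which encodes the endothelial and leukocyte receptor PECAM-1, ranged from 108 to 183 CPM, Alcam, a homophilic receptor of the immunoglobulin family, from 35.4 to 73.6 CPM, and F11r, which encodes JAM-A, from 7.82 to 40.2 CPM, each without a call. Mcam stayed at or below 1.37 CPM. Cdh5, which encodes the VE-cadherin of endothelial junctions, gave 0 to 22 reads per library, at most 0.584 CPM.

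Cd44 (chr2:102811141-102901665, minus strand), the hyaluronan receptor, was at 317, 334 and 331 CPM under NOTCHWT_TCFWT, 241, 226 and 242 under NICD_TCFWT, 252, 243 and 268 under NICD_TCFKO, and 273, 305 and 272 under NOTCHWT_TCFKO. Every NOTCHWT_TCFWT-labelled library lay above the other 9. Cd44 was 1.38-fold lower under NICD_TCFWT (log2 change -0.47 ± 0.07 SE, adjusted p = 0.000953, edgeR), which held under each alternative. Its 1.16-fold lower level under NOTCHWT_TCFKO (-0.21 ± 0.07, adjusted p = 0.0456, edgeR) was lost on leaving out 11 of the 12 libraries (0.0524 to 0.202), all but NOTCHWT_TCFKO replicate 2, and under 6 of 8 other settings (0.0614 to 0.131), all but DESeq2 and limma-voom. Spn, which encodes the mucin CD43, had the highest mean level per kb of all members in each group, at 140, 133, 115 and 130 CPM per kb, and no call. The tetraspanin gene Cd9 ranged from 39.5 to 78.7 CPM without a call.

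**Figure D1:**
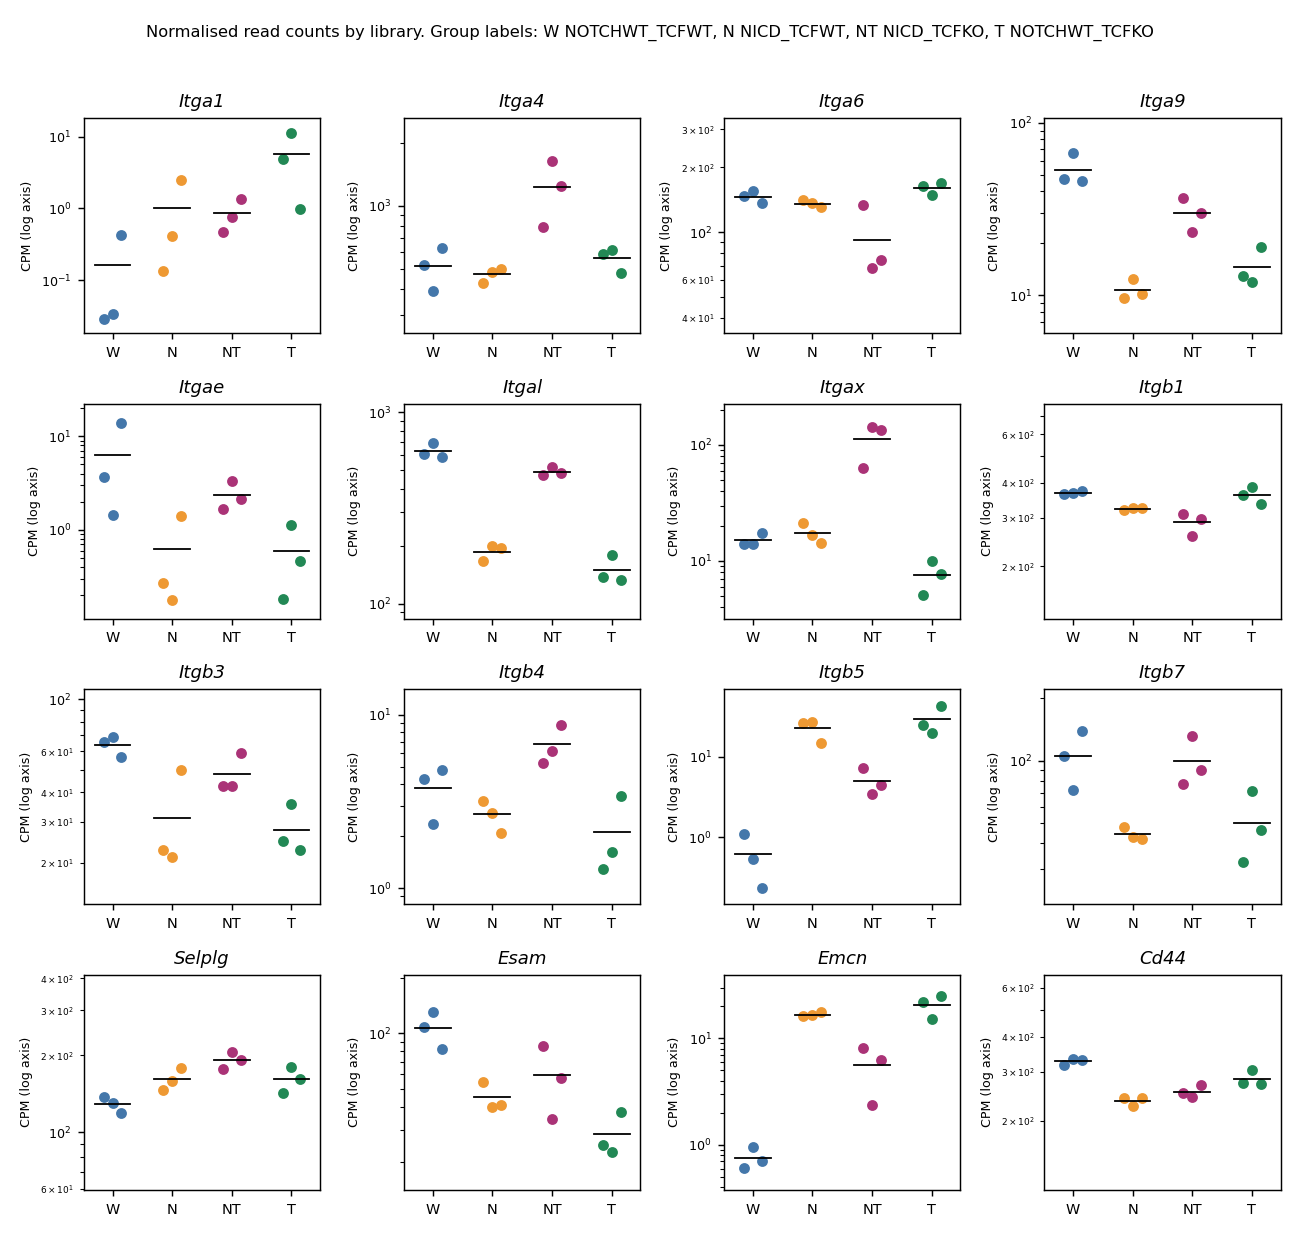
CPM on a log axis, with its own range in each panel, for the 16 adhesion genes that had a call and averaged at least 5 CPM in some group; points are the 3 libraries of each label and bars their mean. W, N, NT and T stand for the labels NOTCHWT_TCFWT, NICD_TCFWT, NICD_TCFKO and NOTCHWT_TCFKO. The Itgal points form an upper band in W and NT (473 to 695) and a lower band in N and T (133 to 200.0), and the Emcn points the reverse.

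The upstream sequences of 5 members with called differences are shown so that the letters before genes that moved in opposite directions can be compared; they were chosen after the values were seen. A RefSeq promoter was matched for 22 of the 36 members (23 promoters, GRCm38.p6), and the 250 bases before the start were searched on both strands for TGGGAA (the core bound by RBPJ, the DNA-binding partner of Notch), CTTTGA (a core of TCF/LEF factors) and TGTGGT (a core of RUNX factors). The 3 motifs do not overlap each other in these promoters. Capitals mark a match, and a match on the minus strand appears as its reverse complement. The Itga9 (chr9:118711442-118711691, plus strand), Itgb5 (chr16:33829415-33829664, plus strand) and Emcn (chr3:137340828-137341077, plus strand) windows held none of the 3 motifs. The RefSeq start of Itga9 lies inside the longer annotated gene. The Itga4 window (chr2:79255176-79255425, plus strand) held TGTGGT on the minus strand, 60 to 55 bases before the start. The Cd44 window (chr2:102901666-102901915, minus strand) held TGGGAA on each strand, 207 to 202 and 179 to 174 bases before the start.
Itga9: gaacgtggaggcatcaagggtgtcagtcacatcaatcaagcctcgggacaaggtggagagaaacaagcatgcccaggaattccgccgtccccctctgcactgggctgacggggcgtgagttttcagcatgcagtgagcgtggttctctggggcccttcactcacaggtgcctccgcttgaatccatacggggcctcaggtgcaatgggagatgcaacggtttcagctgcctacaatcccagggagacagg
Itgb5: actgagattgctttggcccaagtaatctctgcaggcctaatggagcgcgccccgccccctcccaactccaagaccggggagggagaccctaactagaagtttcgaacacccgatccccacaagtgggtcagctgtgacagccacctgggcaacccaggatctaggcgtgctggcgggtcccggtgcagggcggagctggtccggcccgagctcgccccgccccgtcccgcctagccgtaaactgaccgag
Emcn: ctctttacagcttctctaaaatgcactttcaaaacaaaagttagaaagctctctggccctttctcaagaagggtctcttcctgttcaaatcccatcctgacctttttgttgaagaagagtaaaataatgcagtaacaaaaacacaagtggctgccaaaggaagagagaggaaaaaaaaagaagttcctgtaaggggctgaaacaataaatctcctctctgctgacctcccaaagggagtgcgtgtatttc
Itga4: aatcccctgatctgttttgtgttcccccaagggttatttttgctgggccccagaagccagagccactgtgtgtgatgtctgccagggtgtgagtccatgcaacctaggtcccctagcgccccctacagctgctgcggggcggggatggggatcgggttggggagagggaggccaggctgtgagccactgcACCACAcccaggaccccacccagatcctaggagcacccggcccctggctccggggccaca
Cd44: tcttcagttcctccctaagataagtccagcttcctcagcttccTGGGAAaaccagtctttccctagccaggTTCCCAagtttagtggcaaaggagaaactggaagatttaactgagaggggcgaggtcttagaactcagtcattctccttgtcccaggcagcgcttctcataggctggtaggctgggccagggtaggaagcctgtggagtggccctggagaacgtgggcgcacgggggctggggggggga
Of the 23 member promoters, 2 held TGGGAA (8.7%, against 21.6% of 32851 promoters of the same length), 3 held CTTTGA (13.0% against 13.8%) and 2 held TGTGGT (8.7% against 14.0%).

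The comparison of NICD_TCFWT with NOTCHWT_TCFWT asks, by the labels, what the N1IC allele does where Tcf7 is intact, and it also compares an eGFP gate with none. By the labels it further sets Mx1Cre mice against wild type mice, and these differences cannot be told apart. Itgb5, Emcn, Jam2, Jam3 and Itga3 rose, and Itgal, Itga9, Itgae, Itgb3, Itgb7, Esam and Cd44 fell. The 5 higher members are 14.7% of the 34 tested, beside 10.6% of all genes tested, and the 7 lower members are 20.6%, beside 9.75%. The median log2 change was -0.05 over the tested members and 0 over all genes tested. The count of lower members was 3 without NOTCHWT_TCFWT replicate 1, 4 without NICD_TCFWT replicate 1 and 3 without NICD_TCFWT replicate 2. With the Xist covariate, 4 members were called lower, and this comparison sets 3 Xist-high libraries against 1 Xist-high and 2 Xist-low libraries.

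The comparison of NOTCHWT_TCFKO with NOTCHWT_TCFWT asks, by the labels, for the effect of Tcf7 deletion without N1IC. The labels also set Mx1Cre mice against wild type mice here, so Cre and the deletion cannot be told apart. Again Itgb5, Emcn, Jam2 and Jam3 rose, with Itga1, and again Itgal, Itga9, Itgae, Itgb3, Itgb7, Esam and Cd44 fell. The 5 higher members (14.7% of those tested, beside 10.8% of all genes tested) and the 7 lower members (20.6%, beside 10.5%) share the NOTCHWT_TCFWT control libraries with the comparison above, so the likeness of both lists is not independent evidence. The median log2 change was -0.01 over the tested members and 0.000941 over all genes tested. Lower calls numbered 3 without NOTCHWT_TCFWT replicate 1, 4 without NOTCHWT_TCFWT replicate 3, 4 without NICD_TCFKO replicate 3 and 3 without NOTCHWT_TCFKO replicate 1, the library with both Xist and Y-linked reads. With the Xist covariate they numbered 4, and without NOTCHWT_TCFKO replicate 2, the library with the most S100a9, 8.

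Within the N1IC labels, NICD_TCFKO was compared with NICD_TCFWT, both sorted through the same eGFP gate. Itga4, Itga9, Itgal, Itgax and Itgb7 rose, and Itgb5, Emcn and Jam2 fell. The 5 higher members are 14.7% of those tested, beside 7.25% of all genes tested, and the 3 lower members 8.82%, beside 5.15%. The median log2 change was 0.06 over the tested members and 0 over all genes tested. One member was called lower without NICD_TCFWT replicate 1, without NICD_TCFWT replicate 2 or without NICD_TCFKO replicate 3, and 5 without NICD_TCFKO replicate 1. DESeq2 called 7 lower.

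Between the Tcf7 lox/lox labels, NICD_TCFKO differed from NOTCHWT_TCFKO in 11 members. Itga4, Itga9, Itgal, Itgax, Itgb4 and Esam were higher (6 members, 17.6% of those tested, beside 10.3% of all genes tested), and Itga6, Itgb1, Itgb5, Emcn and Jam2 lower (5 members, 14.7%, beside 8.06%). The median log2 change was -0.13 over the tested members and 0.00378 over all genes tested. Without NOTCHWT_TCFKO replicate 1, 3 were higher and 4 lower, without NOTCHWT_TCFKO replicate 2, 5 were higher and 4 lower, and without NICD_TCFKO replicate 2, 3 were lower. With only these 2 groups fitted, 3 were higher and 2 lower.

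**Figure D2:**
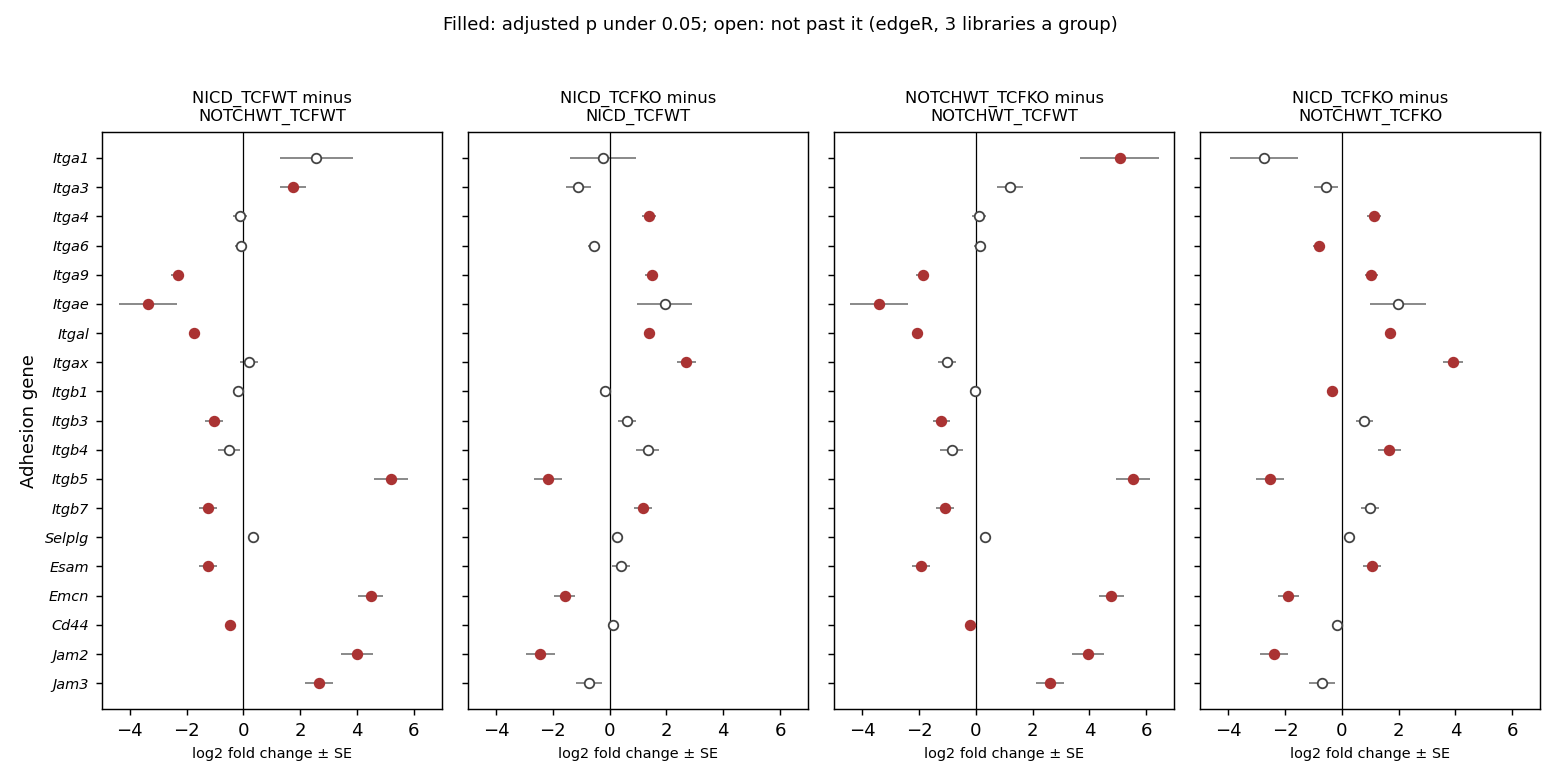
Log2 fold change with its SE for the 19 adhesion genes with a call, in the 4 comparisons between labels that differ in 1 term; filled points have an adjusted p under 0.05 (edgeR, 3 libraries in each group). Itgb5, Emcn, Jam2 and Jam3 lie to the right in both panels against NOTCHWT_TCFWT, and Itgal and Itga9 lie to the left there and to the right in the other panels.

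Whether the difference between the Tcf7 labels depended on the N1IC label was tested by an interaction term, the change from NICD_TCFWT to NICD_TCFKO minus that from NOTCHWT_TCFWT to NOTCHWT_TCFKO. Only the NOTCHWT_TCFWT label names no Mx1Cre, so the term cannot be told apart from a difference in Cre. The term was positive in 10 members (29.4% of those tested, beside 13.8% of all genes tested) and negative in 6 (17.6%, beside 13.5%). Positive values ranged from Itgae, at 5.35 ± 1.41 (SE) on the log2 scale (adjusted p = 0.0182, edgeR), and Itgax, at 3.69 ± 0.46 (0.000311), through Itgal, at 3.45 ± 0.17 (5.19e-07), to Cd44, at 0.32 ± 0.09 (0.029). Negative values ran from Itgb5, at -7.71 ± 0.77 (8.53e-05), Jam2, at -6.38 ± 0.76 (0.000175), and Emcn, at -6.35 ± 0.57 (2.93e-05), to Itga3, at -2.30 ± 0.63 (0.0191). The fitted value of Itga1, -5.31 ± 1.77 (0.0486), rests on libraries with 1 read each. Its call was lost on leaving out 9 of the 12 libraries (0.0586 to 0.157), all but NOTCHWT_TCFWT replicate 3, NICD_TCFWT replicate 1 and NOTCHWT_TCFKO replicate 3, and the call of Cd44 on leaving out 9 (0.0613 to 0.101), all but NICD_TCFWT replicate 3, NICD_TCFKO replicate 2 and NOTCHWT_TCFKO replicate 2. Other settings also ended the call of Itga1 (no filter, 0.0834, and limma-voom, 0.184) and of Cd44 (no filter, 0.0787, replicate block, 0.0545, and Xist covariate, 0.0676). The call of Itga4 (1.26 ± 0.34, adjusted p = 0.0201, edgeR) was lost without NICD_TCFWT replicate 1 (0.0545) or NOTCHWT_TCFKO replicate 3 (0.0503) and with the Xist covariate (0.05). The other 13 interaction calls held under each alternative. Without NOTCHWT_TCFKO replicate 1 it was positive in 9 members and negative in 5, and without NOTCHWT_TCFKO replicate 2 in 10 and 5. Medians were -0.07 over the tested members and 0.00732 over all genes tested.

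Markers of other cell types moved with several of these genes. Counts in brackets after a list are of genes that differed among the groups, where 29.7% of all genes tested did. Beside the high Itgax and Itga4 of the NICD_TCFKO label, the summed level of 10 T cell markers (9 of 10 differed among the groups) was 641 to 2017 CPM there, 207 to 233 under NOTCHWT_TCFWT, 40.4 to 59.2 under NICD_TCFWT and 33.3 to 57.5 under NOTCHWT_TCFKO. The T cell sum had the same groups high and low as Itgal, but its NICD_TCFKO level was above that of NOTCHWT_TCFWT. Against NOTCHWT_TCFWT, 3 of the 10 markers were called lower under NICD_TCFWT and 3 under NOTCHWT_TCFKO, with 0 higher in each. Among all genes tested, 9.75% and 10.5% were called lower. Ptcra, a defining gene of T cell precursors, had at most 1 read in each of the 9 libraries outside the NICD_TCFKO label. The dendritic cell and MHC class II list (5 of 10) summed to 369 to 1026 CPM under NOTCHWT_TCFWT, 85.4 to 134 under NICD_TCFWT, 267 to 981 under NICD_TCFKO and 184 to 258 under NOTCHWT_TCFKO. Beside Emcn, Itgb5, Jam2 and Jam3, the megakaryocyte and platelet list (9 of 10 tested) summed to 52.0 to 121 CPM, 277 to 329, 37.3 to 114 and 172 to 234 in the same order, while Gp6 was at 0 everywhere. The endothelial list (4 of 8 tested of 12) summed to 10.02 to 12.1, 7.64 to 9.44, 9.73 to 11.1 and 13.1 to 17.8 CPM. This sum came mostly from Kdr, Plvap and Flt4 outside the NOTCHWT_TCFKO label, and members of the list moved in both directions. Against NOTCHWT_TCFWT, 2 of the 8 tested were higher (Sox18 and Fabp4) and 1 lower (Kdr) under NICD_TCFWT, and 3 were higher (Flt1, Stab2 and Fabp4) and 1 lower (Kdr) under NOTCHWT_TCFKO. Sox18, an endothelial transcription factor, was at 0.0331 to 0.140 CPM under NOTCHWT_TCFWT and 0.676 to 1.82 under NICD_TCFWT (log2 change 3.81 ± 0.85 SE, adjusted p = 0.0105, edgeR). Stab2, a scavenger receptor of sinusoidal endothelium, was at 4.92 to 6.27 CPM under NOTCHWT_TCFKO and at most 0.649 CPM in the other 9 libraries. Cldn5, Sox7, Lyve1, Mmrn2 and Aplnr, of which Cldn5 alone was tested, stayed at or below 0.570, 0.0243, 0.186, 0.0661 and 0.216 CPM. The neutrophil list (3 of 10) summed to 20.2 to 39.8, 1272 to 5019, 259 to 1122 and 1048 to 8858 CPM, and the macrophage and monocyte list (11 of 12) to 56.5 to 113, 41.2 to 152, 90.9 to 170.4 and 309 to 750.0 CPM. Lists for B cells (2 of 5 tested), erythroid cells (0 of 6) and stroma (2 of 4 tested) had summed ranges over all libraries of 22.2 to 57.6, 137 to 991 and 68.0 to 1023 CPM, the last carried by Pdgfrb. The part of these cells in the adhesion results was not tested.

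**Figure D3:**
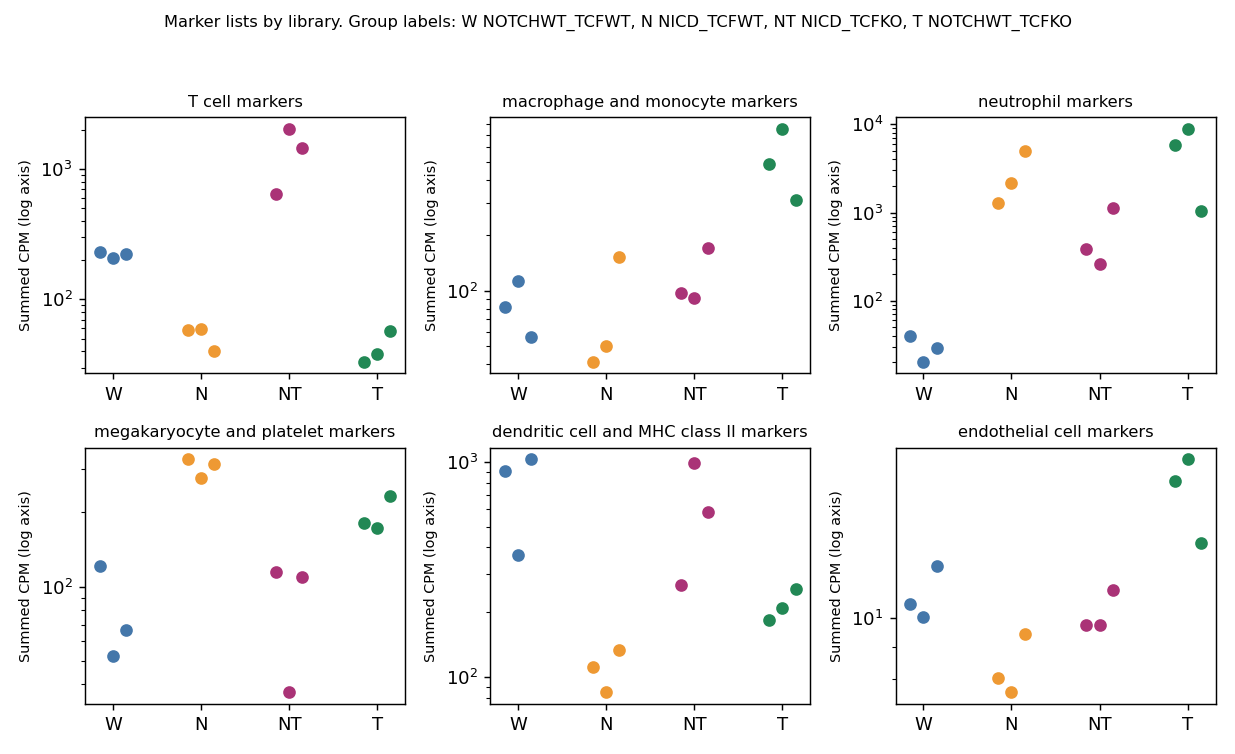
Summed CPM on a log axis of 6 marker lists, 1 point per library, with W, N, NT and T for the labels NOTCHWT_TCFWT, NICD_TCFWT, NICD_TCFKO and NOTCHWT_TCFKO. T cell markers are highest in NT (641 to 2017), megakaryocyte markers are higher in N and T than in W and NT, and the endothelial sum stays under 18 in every library.

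Other integrins and adhesion receptors, outside the 36 members, included some of the largest changes. Itgb6, the epithelial beta chain that pairs with alpha-v, was at 32.4, 25.1 and 30.2 CPM under NOTCHWT_TCFWT, 0.190, 0.257 and 0.352 under NICD_TCFWT, 7.45, 3.51 and 4.83 under NICD_TCFKO, and 0.634, 0.345 and 0.533 under NOTCHWT_TCFKO, with the bands of Itgb5 reversed. Itgb6 fell by 6.76 ± 0.38 (SE) on the log2 scale under NICD_TCFWT against NOTCHWT_TCFWT (adjusted p = 3.07e-06, edgeR). Vcam1, the VCAM-1 ligand of the alpha-4 and alpha-9 integrins, was at 112 to 182 CPM under NOTCHWT_TCFKO and at 0.387 to 5.03 CPM in the other 9 libraries. It moved there with the macrophage list. Itgad, a beta-2 partner of macrophages, was at 1.49 to 2.01, 2.49 to 2.62, 7.88 to 17.1 and 20.2 to 24.7 CPM. Of this list of 15 receptors, 14 matched a symbol (Cd99 did not), 12 were tested and 9 differed among the groups, where 29.7% of all genes tested did.

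The intracellular and ligand-modifying partners moved in part. Of 35 genes of integrin activation and the adhesion complex, 30 were tested and 14 differed among the groups, where 29.7% of all genes tested did. Tns3, which encodes the tensin-3 adaptor at integrin tails, was at 240 to 263 CPM under NOTCHWT_TCFWT, 92.9 to 114 under NICD_TCFWT, 261 to 300.3 under NICD_TCFKO and 110 to 123 under NOTCHWT_TCFKO, so the same groups were high and low as for Itgal. Its log2 change was -1.31 ± 0.09 (SE) under NICD_TCFWT against NOTCHWT_TCFWT (adjusted p = 1.4e-05, edgeR) and 1.25 ± 0.09 under NICD_TCFKO against NOTCHWT_TCFKO (adjusted p = 1.86e-05, edgeR). The tetraspanin gene Cd82 followed, at 143 to 187, 39.5 to 58.4, 118 to 195 and 56.7 to 90.4 CPM. Fermt3, which encodes the kindlin-3 of blood cells, was higher under NICD_TCFWT than under NOTCHWT_TCFWT by 0.37 ± 0.08 on the log2 scale (adjusted p = 0.0116, edgeR). Of 11 genes that glycosylate or sulfate selectin ligands, all tested, 6 differed among the groups. Against NOTCHWT_TCFWT, 4 rose and 0 fell under NICD_TCFWT (10.6% and 9.75% of all genes tested did), and 5 rose and 0 fell under NOTCHWT_TCFKO (10.8% and 10.5% of all genes tested). The branching enzyme Gcnt1 went from 43.2 to 46.5 CPM under NOTCHWT_TCFWT to 74.9 to 77.5 under NICD_TCFWT, 37.1 to 51.6 under NICD_TCFKO and 71.8 to 82.0 under NOTCHWT_TCFKO, the tyrosine sulfotransferase Tpst1 from 5.45 to 8.33 CPM to 16.0 to 17.4, 8.52 to 11.7 and 13.0 to 15.3, and the fucosyltransferase Fut7 from 30.9 to 41.5 CPM to 52.7 to 62.4, 35.0 to 39.8 and 44.4 to 58.6. Of 16 cadherin and tight junction partners, 14 were tested and 6 differed among the groups, with 4 lower and 0 higher under NICD_TCFWT against NOTCHWT_TCFWT (9.75% lower and 10.6% higher among all genes tested) and 6 lower and 0 higher under NOTCHWT_TCFKO (10.5% lower and 10.8% higher). Afdn, which encodes the afadin that links nectins to actin, was at 230.2 to 290.4, 40.5 to 53.8, 123 to 171 and 32.9 to 55.5 CPM. Cdh1, the E-cadherin that CD103 binds, was at 29.4 to 87.1 CPM under NICD_TCFKO and 0.591 to 7.91 CPM in the other libraries, and Ctnna1, the alpha-catenin of cadherin complexes, was highest under NOTCHWT_TCFWT at 223 to 252 CPM. Of 14 integrin ligands and matrix genes, 9 were tested and 3 differed, Cdh1 (which this list also holds), Spp1 and Lamc1. Spp1, the osteopontin that alpha-9 binds, rose from 0.233 to 0.661 CPM under NOTCHWT_TCFWT to 2.95 to 6.92 under NICD_TCFWT (3.37 ± 0.59, adjusted p = 0.00297, edgeR).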

How the data were processed

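RNA-seq was done on 12 LSK libraries, single end 75 nt reads in 1 batch, per the labels. Some of the numbers that end the column headers of the count table occur on more than 1 library. Whether they mark separate sequencing runs is not given in the sources used here and was not tested. The authors deposited a table of raw gene counts, equal in every cell to the 12 deposited sample files, and a log2 table; in each library the deposited log2 values of 15759 genes equal log2(count + 0.5) minus a constant and were not tested. The submitters' processing notes name HISAT2, featureCounts 1.4.4, limma, edgeR 3.28.0, cutadapt 1.9.1, bcl2fastq 2.17 and mm10, with no roles; strand use in counting is not given in the sources used here. Ensembl identifiers were matched to GENCODE M21 (GRCm38), which named 37607 of 39017 genes, and lengths are the union of exons.

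Counts were fitted with edgeR 4.0.16 in R 4.3.3 (TMM, filterByExpr by group, robust quasi-likelihood F test, 1 mean per group, 12 libraries), which tested 16024 genes holding at least 99.92% of each library's counts. P-values were two-sided and Benjamini-Hochberg adjusted over all of them, with 0.05 as the threshold; SE is the log2 change over the square root of F. The fit was also run on counts simulated from the spread fitted to these same libraries. Such counts cannot show whether the model suits these libraries. Alternatives were other scaling and filters, DESeq2 1.42.0, limma-voom 3.58.1, only the 2 groups compared, a replicate block, each library left out and, chosen after seeing the data, an Xist covariate. Members with a call and at least 5 CPM in some group are given by library, the others by range or mean, and up to 3 genes of each accompanying list by smallest p among groups. The members and lists were chosen with earlier results of these data known. Protein sequences were not used here.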

Additional observations from a re-analysis of the deposited data

Results flagged for a closer look

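The difference between the Tcf7 labels was unlike under the N1IC labels in 16 adhesion genes, by the interaction term of the edgeR fit (adjusted p under 0.05 over all genes tested, 3 libraries a group): 10 were positive, beside 13.8% of all genes tested, and 6 negative, beside 13.5%. Of 19 alternatives, 12 ended the call of Cd44, 11 that of Itga1 and 3 that of Itga4. Among integrin alpha chains the log2 interaction was 1.26 for Itga4, 3.35 for Itga9, 5.35 for Itgae, 3.45 for Itgal and 3.69 for Itgax, against -5.31 for Itga1 and -2.30 for Itga3. Among beta chains it was 1.83 for Itgb3, 2.19 for Itgb4 and 2.24 for Itgb7, against -7.71 for Itgb5. Esam, at 2.32, and Cd44, at 0.32, were positive, and Emcn, at -6.35, Jam2, at -6.38, and Jam3, at -3.36, were negative. Itgal, Itga9, Itgb7, Itgb5, Emcn and Jam2 were each called in opposite directions by the Tcf7 comparison within the N1IC labels and by the one without them. The share of all genes tested that did so is not given here. Of 20 alternatives, 9 ended the Itgb7 call within the N1IC labels and 11 the one without them. Within the N1IC labels, 5 ended the call of Emcn and 4 that of Itgb5. The measured Tcf7 and Notch1 levels go against the labels in part, so these values describe 4 labelled groups and not the alleles.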

How the results depend on the processing

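Of 59 calls of members in a comparison, 36 held under every alternative run and 0 changed direction, and of 217 counts of called members under alternatives, 197 stayed within 1.5 times the reported count. The matching counts over all genes in these runs are not given here. For NOTCHWT_TCFKO against NOTCHWT_TCFWT, lower calls went from 7 to 4 with no filter on low counts and to 4 with the Xist covariate, which also took lower calls for NICD_TCFWT against NOTCHWT_TCFWT from 7 to 4. For NICD_TCFKO against NICD_TCFWT, lower calls went from 3 to 5 when 1 CPM was required in 3 libraries and to 7 with DESeq2. For NICD_TCFKO against NOTCHWT_TCFKO with only the 2 groups fitted, higher calls went from 6 to 3 and lower calls from 5 to 2. With each library left out in turn, members called higher and lower ranged from 4 to 6 and 3 to 7 for NICD_TCFWT against NOTCHWT_TCFWT, 4 to 6 and 1 to 5 for NICD_TCFKO against NICD_TCFWT, 4 to 6 and 3 to 8 for NOTCHWT_TCFKO against NOTCHWT_TCFWT, 3 to 7 and 3 to 6 for NICD_TCFKO against NOTCHWT_TCFKO, and 9 to 11 and 5 to 6 for the interaction, and members differing among the 4 groups from 12 to 18; a group left with 2 libraries shares its spread with the others. RLE scaling moved the median log2 change of all genes by at most 0.015. Replicate numbers did not pair the libraries: deviations of the 18 same-number pairs correlated at -0.394 to 0.415 (median 0.0276), and 3 of 12 libraries were closest to their own number. With the replicate number as a block, members differing among the 4 groups went from 18 to 17, and the counts of members called higher and lower were 5 and 6, 4 and 3, 5 and 5, 5 and 5, and 9 and 6 in the order of the ranges above. Depth limits Itga1, Itgae, Jam2, Mcam and Cdh5, which had libraries with under 10 reads, and Itga7 and Itgb8, which could not be tested.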
